A study of Mus musculus with 6 samples.

Results

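Transcripts of the DNA replication machinery and of the enzymes that supply its nucleotides were measured in cultures of spermatogonial stem cells from mice, from which sperm production is renewed. The 36 genes were listed by name, and each was found on the array through the RefSeq accession of its probes. All 36 passed the filter on dim probes, out of 14876 named genes tested. The cells had received 0.01 M captopril, an inhibitor of angiotensin-converting enzyme, or sterile water as the control, for 24 h, with 3 single-colour Agilent arrays in each group. The labels give 0.01 M for the water too. Both groups were grown from dissociated mouse testis cells and then kept in medium with mouse embryonic fibroblasts. Strain and age are not given in the sources used here. The labels call the samples independent, without saying whether they came from separate animals, so p-values measure the spread between these samples. The arrays of both groups are numbered 2, 3 and 4.

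A replication origin is licensed in G1 phase, when the origin recognition complex, Cdc6 and Cdt1 load the ring of minichromosome maintenance (MCM) proteins onto DNA. In S phase Cdc45 and the GINS complex join that ring to form the working helicase, and DNA polymerases with their sliding clamp copy both strands. Ribonucleotide reductase, thymidylate synthase and thymidine kinase supply deoxynucleotides. Many of these genes are known targets of E2F transcription factors and peak around the start of S phase. A sample with fewer cells in S phase and one with less of these transcripts per cell cannot be told apart in bulk RNA.

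The labelled cell type was checked against markers. All 16 germ cell markers, among them Ddx4, Dazl and Zbtb16, were well above background on at least 5 arrays. All 15 feeder fibroblast markers, among them Col1a1 and Vim, were so on 6 arrays, so the RNA holds transcripts of both kinds of cell. Of 9 Sertoli and Leydig cell markers 3 were measured, namely Sox9, Wt1 and Star, each well above background on 6 arrays. No array held Amh, Cldn11, Cyp11a1 or Hsd3b1 well above background. Gata4 was well above background on too few arrays to be measured, and Insl3 had no value. Of 7 leukocyte markers 6 were measured.

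Water array 3 stood apart before any comparison of groups. Over the genes tested it correlated with each of the others at 0.884 to 0.900, while the remaining 5 correlated among themselves at 0.967 to 0.992. On this array 8.25% of all genes lay more than 2 log2 units below their median on the other arrays, against at most 0.363% on any other array. Among genes with several probes above background, 36.4% had probes whose shifts on water array 3 differed by more than 2 log2 units, against at most 1.39% on any other array. The comparisons are therefore given with all 6 arrays and without water array 3, which leaves 3 captopril and 2 water arrays.

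The replication genes stood mostly lower with captopril than in water, by modest amounts, and none passed the test. Over 6 arrays 30 of the 36 had a negative log2 fold change (captopril minus water) and 6 a positive one, with a median of −0.27, beside 53.2% negative and a median of −0.03 over all genes tested. Without water array 3 there were 31 negative and 5 positive values with a median of −0.20, beside 41.5% negative and a median of 0.07 over all genes. By group median the licensing genes, the nucleotide supply enzymes and the polymerase genes lay under the median of the members in both comparisons. The lowest single gene in both was Rrm2. Cdc45 and the GINS genes had the lowest group median without water array 3, at −0.48, but stood at 0.15 over 6 arrays. Without water array 3 the MCM median was −0.04, or −0.19 with quantile normalization and −0.17 with scaling by each array's median. The clamp loader genes lay on both sides of 0 without water array 3, but all were negative with either of those scalings. They ran from −0.33 to −0.01 with quantile normalization and from −0.40 to −0.05 with median scaling. These differences between subcomplexes were not tested.

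No member passed an adjusted p of 0.05 by limma with Benjamini-Hochberg adjustment over all 14876 genes, in either comparison. Over 6 arrays 0 of all genes passed (0%), and the smallest adjusted p of a member was 0.520, for Rrm2. At an unadjusted p under 0.05 there were 2 members over 6 arrays, Gins1 and Rrm2, both lower, or 5.56% of the members against a background of 4.91% of all genes called lower. Without water array 3, limma called 29 of all genes lower (0.195%), 62 higher and 0 members. The smallest adjusted p of a member was 0.0789, again for Rrm2. There 5 members had an unadjusted p under 0.05, all lower (Cdc45, Gins1, Rrm1, Rrm2 and Tyms), which is 13.9% of the members against a background of 6.98%. No gene passed the adjusted threshold on these 5 arrays with quantile normalization or with no filter on dim probes. In 8 members, 22.2%, every captopril array lay below every water array, against 11.4% of all genes. Without water array 3 this held for 15 members, 41.7%, against 15.7% of all genes.

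**Figure D1:**
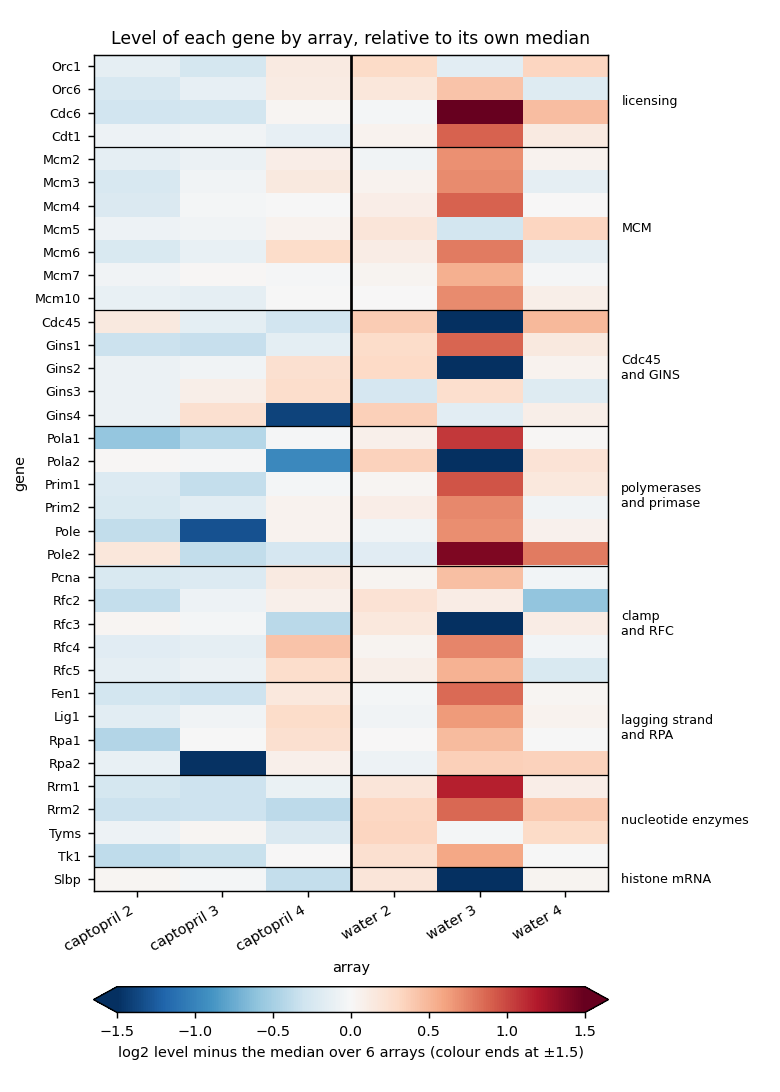
Log2 level of each of the 36 genes (rows, by role) on each array (columns, captopril left of the line, water right), relative to the gene's own median over 6 arrays. Water array 3 is the highest array for 25 of the genes, while Cdc45, Gins2, Pola2, Rfc3 and Slbp lie more than 2 log2 units below the other arrays there.

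Water array 3 lay high for most members and far below the other arrays for a few. It was the highest of the 6 arrays in 25 members (69.4%), and in 54.7% of all genes. In 5 members it lay far below all other arrays. Relative to the median of the other 5, it stood at −5.67 log2 units for Cdc45, −5.01 for Pola2, −4.48 for Gins2, −3.67 for Rfc3 and −2.67 for Slbp. Those 5 are the members, besides Gins3, with a positive log2 fold change over 6 arrays, and each was negative without that array. No other array had a member more than 2 log2 units away from the rest. The median SD of a member was 0.203 over the captopril arrays and 0.406 over the water arrays, close to the 0.204 and 0.449 of all genes.

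Promoter sequences are shown for the 4 members with the smallest p over 6 arrays that the promoter table holds, to show where the searched words lie in single promoters. They come from RefSeq (GRCm38.p6), run from upstream of the annotated start to just past it, and are written 5′ to 3′ on the gene's strand. Capitals mark E2F words and CCAAT boxes on either strand. The E2F words searched were TTTCCCGC, TTTCGCGC, TTTGCCGC and TTTGGCGC, the box bound by NF-Y was CCAAT, and the CHR element of cell cycle promoters was TTTGAA. Rrm2 lies at chr12:24708004-24708303 (plus strand), Rrm1 at chr7:102441445-102441744 (plus strand), Pola1 at chrX:93632106-93632405 (minus strand) and Cdc6 at chr11:98907901-98908200 (plus strand).
Rrm2: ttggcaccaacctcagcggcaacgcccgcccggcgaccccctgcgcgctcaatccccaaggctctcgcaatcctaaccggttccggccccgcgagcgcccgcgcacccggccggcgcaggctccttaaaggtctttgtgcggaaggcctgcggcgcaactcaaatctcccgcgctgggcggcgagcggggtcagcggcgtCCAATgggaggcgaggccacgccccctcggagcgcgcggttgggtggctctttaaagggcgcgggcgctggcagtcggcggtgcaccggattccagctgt
Rrm1: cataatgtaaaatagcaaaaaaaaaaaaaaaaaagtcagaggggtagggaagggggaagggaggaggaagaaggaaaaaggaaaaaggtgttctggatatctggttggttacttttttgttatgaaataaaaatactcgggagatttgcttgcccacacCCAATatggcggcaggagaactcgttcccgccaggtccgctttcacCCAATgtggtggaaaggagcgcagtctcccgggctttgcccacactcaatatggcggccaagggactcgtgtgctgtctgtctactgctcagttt
Pola1: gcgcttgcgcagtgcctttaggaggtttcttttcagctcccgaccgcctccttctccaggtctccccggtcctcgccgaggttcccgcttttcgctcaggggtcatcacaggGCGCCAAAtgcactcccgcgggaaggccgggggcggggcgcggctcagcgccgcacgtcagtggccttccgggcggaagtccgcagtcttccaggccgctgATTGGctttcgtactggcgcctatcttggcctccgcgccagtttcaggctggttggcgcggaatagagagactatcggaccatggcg
Cdc6: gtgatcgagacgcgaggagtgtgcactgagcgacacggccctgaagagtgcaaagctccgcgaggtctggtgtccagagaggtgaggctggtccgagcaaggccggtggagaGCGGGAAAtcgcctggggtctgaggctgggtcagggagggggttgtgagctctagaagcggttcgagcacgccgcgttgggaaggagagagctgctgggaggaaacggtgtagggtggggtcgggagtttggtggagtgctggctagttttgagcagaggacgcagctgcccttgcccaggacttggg

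The stretches of both ribonucleotide reductase genes hold CCAAT boxes, 1 in Rrm2 and 2 in Rrm1, and none of the 4 E2F words. Pola1 holds 1 E2F word and 1 CCAAT box, and Cdc6 holds 1 E2F word. The table had 33 promoters for 29 of the 36 members. An E2F word stood in 12 of the 33 (36.4%), against 2.26% of all 32851 promoters of that length. The 12 promoters belong to Cdc6, Cdt1, Orc1, Mcm3, Mcm5, Mcm6, Mcm7, Gins3, Pola1, Pole2, Rfc3 and Lig1. CCAAT stood in 60.6% of the member promoters against 37.4% of all, and TTTGAA in 12.1% against 17.9%. An E2F word overlapped a CCAAT box in 1 member promoter, and 2 E2F words overlapped in 2. The 12 members with an E2F word had a median log2 fold change of −0.25 over 6 arrays, close to the −0.27 of the 17 without one. Without water array 3 these medians were −0.22 and −0.23. A member without any of the 4 words may still be an E2F target, and a part of E2F in the values was not tested. Gins1, Gins2, Gins4, Mcm4, Pole, Prim2 and Rfc2 had no entry.

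The nucleotide supply enzymes had negative values in all 4 genes, with a median log2 fold change of −0.60 over 6 arrays and of −0.38 without water array 3. Their median level on captopril arrays 2, 3 and 4 was −0.29, −0.31 and −0.16 relative to each gene's own median, against 0.27, 0.72 and 0.20 on water arrays 2, 3 and 4. The captopril arrays all lay below the water arrays. Levels of single genes are given as log2 of the spot signal relative to the 75th percentile of the array, so that a gene at 0 is as bright as that percentile. They serve to compare arrays for 1 gene, not genes with each other.

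Rrm2 encodes the subunit of ribonucleotide reductase that limits its activity through the cell cycle. Its level was 2.04, 2.05 and 1.97 on captopril arrays 2, 3 and 4, against 2.67, 3.22 and 2.75 on water arrays 2, 3 and 4. The 3 captopril arrays had an SD of 0.04 and all lay below the water arrays, and Rrm2 was the member with the smallest p in both comparisons. Its log2 fold change was −0.86 (SE 0.23, limma adjusted p = 0.520), and −0.69 without water array 3 (SE 0.14, adjusted p = 0.0789), which puts the captopril level at 62.0% of that in water. It did not pass the test in either.

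Rrm1 encodes the large subunit of the same enzyme. Its level was 3.31, 3.27 and 3.48 on captopril arrays 2, 3 and 4, against 3.75, 4.75 and 3.68 on water arrays 2, 3 and 4, again with no overlap. The log2 fold change was −0.71 (SE 0.33, limma adjusted p = 0.617), and −0.36 without water array 3 (SE 0.15, adjusted p = 0.250). Tk1, the thymidine kinase of the cytosol, stood at 2.25, 2.30 and 2.64 on captopril arrays, against 2.87, 3.21 and 2.62 on water arrays. Captopril array 4 and water array 4 nearly coincide in Tk1, so its groups overlap. Its log2 fold change was −0.50 (SE 0.25) over 6 arrays and −0.35 (SE 0.18) without water array 3. Tyms, which makes thymidylate and is described here because of its values, stood at −3.30, −3.20 and −3.45 on captopril arrays, against −2.91, −3.25 and −2.94 on water arrays. Here water array 3 lay among the captopril arrays, and the log2 fold change was −0.29 (SE 0.22) over 6 arrays. Without it the groups separated, at −0.40 (SE 0.15, adjusted p = 0.222).

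**Figure D2:**
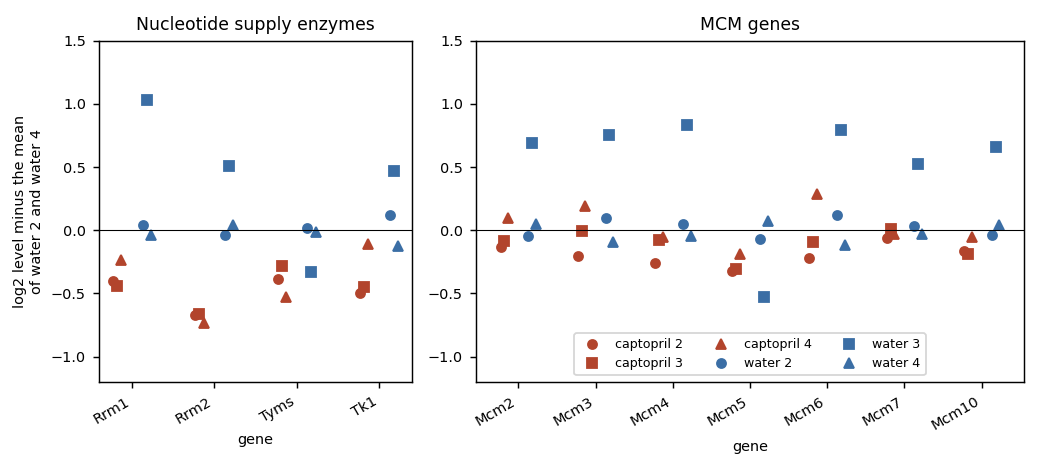
Log2 level of the 4 nucleotide supply enzymes (left) and the 7 MCM genes (right) on each array, relative to the mean of water arrays 2 and 4 (0 line); red symbols are captopril and blue symbols water arrays. All captopril symbols of the nucleotide enzymes lie under the line, while those of the MCM genes scatter around it, apart from Mcm4, Mcm5 and Mcm10.

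The origin licensing genes Orc1, Orc6, Cdc6 and Cdt1 were negative in all 4 cases, with a median of −0.34 over 6 arrays and of −0.28 without water array 3. Cdc6, which helps load the MCM ring, stood at 0.08, 0.08 and 0.38 on captopril arrays 2, 3 and 4, against 0.33, 1.88 and 0.82 on water arrays 2, 3 and 4. Captopril array 4 reached the level of water array 2. The log2 fold change was −0.83 (SE 0.40, limma adjusted p = 0.619), and −0.40 without water array 3 (SE 0.20, adjusted p = 0.322). The second Cdc6 probe separated the groups more clearly, at −3.36, −3.30 and −3.99 on captopril arrays against −2.42, −2.07 and −2.41 on water arrays. Its log2 fold change was −1.25 over 6 arrays and −1.14 without water array 3, beyond that of the brighter probe.

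Cdt1, the partner of Cdc6 in loading, stood at 2.93, 2.96 and 2.88 on captopril arrays, against 3.06, 3.89 and 3.14 on water arrays. The captopril arrays lay just under the water arrays in Cdt1, at −0.44 (SE 0.28) over 6 arrays and −0.17 (SE 0.14) without water array 3. Orc1, the largest subunit of the origin recognition complex, stood at 0.31, 0.18 and 0.58 on captopril arrays, against 0.73, 0.29 and 0.76 on water arrays. Water array 3 was the second lowest of its arrays, and the value was −0.24 (SE 0.24) over 6 arrays and −0.39 (SE 0.17) without it. Orc6, the smallest subunit, gave −0.22 and −0.07 in the same comparisons, with overlapping groups in both. Within slide row 2, which holds the captopril arrays and water array 4 alone, Orc6 gave 0.11.

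The MCM genes had negative values in all 7 cases in both comparisons. Their median was −0.27 over 6 arrays and −0.04 without water array 3, beside medians of −0.03 and 0.07 over all genes. With quantile normalization of the 5 arrays it was −0.19, beside 0.0013 over all genes, and with median scaling −0.17, beside −0.06. Within slide row 2 it was −0.08, with 4 genes negative and 3 positive. Mcm4, a subunit of the ring, stood at 2.99, 3.17 and 3.20 on captopril arrays, against 3.30, 4.08 and 3.20 on water arrays. Mcm10, which is not part of the ring and helps to start it, stood at 2.18, 2.16 and 2.29 on captopril arrays, against 2.30, 3.00 and 2.38 on water arrays. In both genes the captopril arrays lay below the water arrays by a narrow margin, and the log2 fold changes were −0.41 and −0.35 over 6 arrays and −0.13 and −0.13 without water array 3 (SE 0.15 and 0.14).

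Mcm2 stood at 3.32, 3.36 and 3.54 on captopril arrays, against 3.40, 4.13 and 3.49 on water arrays. Its groups overlap, and the log2 fold change was −0.27 (SE 0.27) over 6 arrays and −0.04 (95% interval −0.39 to 0.32) without water array 3. The ring subunits Mcm3, Mcm6 and Mcm7 had values of −0.01, −0.01 and −0.03 without water array 3, with 95% intervals of −0.42 to 0.41, −0.48 to 0.46 and −0.36 to 0.30. Intervals of that width leave room for decreases or increases of such sizes. Mcm5 differed from the rest of the ring in that water array 3 was its lowest array, and it gave −0.10 (SE 0.24) over 6 arrays and −0.27 (SE 0.14) without that array.

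Cdc45 and the GINS genes, which turn the MCM ring into the working helicase, did not share 1 pattern. Their median was 0.15 over 6 arrays and −0.48 without water array 3. Gins1 stood at 1.43, 1.41 and 1.61 on captopril arrays, against 2.03, 2.63 and 1.90 on water arrays, with no overlap. Its log2 fold change was −0.70 (SE 0.26, limma adjusted p = 0.591), and −0.48 without water array 3 (SE 0.15, adjusted p = 0.167). Gins2 stood at 1.99, 2.02 and 2.32 on captopril arrays, against 2.37, −2.35 and 2.13 on water arrays. The 1.39 (SE 1.17) of Gins2 over 6 arrays rests on water array 3 alone, and without it the value was −0.14 (SE 0.17).

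Gins4 stood at 1.96, 2.29 and 0.66 on captopril arrays, against 2.40, 1.89 and 2.14 on water arrays. Here captopril array 4 was the low one, and the groups overlap, at −0.50 (SE 0.44) over 6 arrays and −0.63 (SE 0.45) without water array 3. Without captopril array 4 the value was −0.0167. Gins3, described because of its values, stood apart in the complex, with 4.55, 4.73 and 4.90 on captopril arrays, against 4.39, 4.89 and 4.44 on water arrays. Its values of 0.15 (SE 0.24) over 6 arrays and 0.31 (SE 0.16) without water array 3 were positive. All its captopril arrays lay above water arrays 2 and 4, as they did in 27.2% of all genes. When each array's median was used for scaling, Gins3 gave −0.15 over 6 arrays, beside a median of −0.33 over all genes. Without water array 3 that scaling gave 0.18. Cdc45, described because of its values, stood at −0.11, −0.39 and −0.54 on captopril arrays, against 0.13, −5.78 and 0.24 on water arrays, the second of which was too dim to be well above background. The log2 fold change was 1.46 (SE 1.51) over 6 arrays and −0.53 (SE 0.18, limma adjusted p = 0.184) without that array. Its captopril arrays all lay below water arrays 2 and 4.

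**Figure D3:**
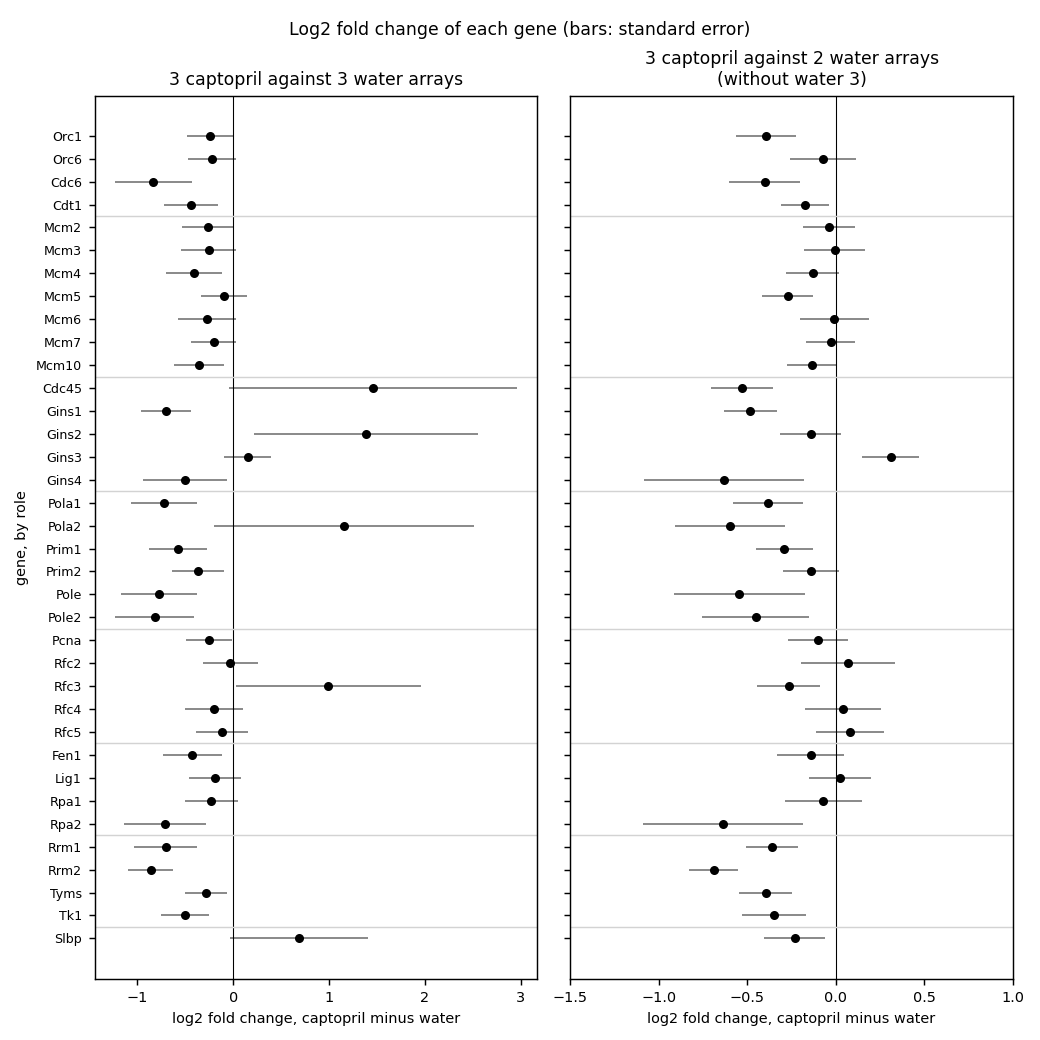
Log2 fold change (captopril minus water) of each of the 36 genes, grouped by role from origin licensing at the top to Slbp at the bottom, over 6 arrays (left) and without water array 3 (right); bars are standard errors, and the panels have different axis ranges. Cdc45, Gins2, Pola2, Rfc3 and Slbp lie right of 0 with wide bars on the left, and left of 0 on the right.

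The genes of DNA polymerase alpha, primase and DNA polymerase epsilon were negative in 5 of 6 cases over 6 arrays, with a median of −0.65, and in 6 of 6 without water array 3, with a median of −0.42. Pola1, the catalytic subunit of polymerase alpha, stood at 0.19, 0.34 and 0.76 on captopril arrays 2, 3 and 4, against 0.85, 1.84 and 0.79 on water arrays 2, 3 and 4. Captopril array 4 came within a few hundredths of water array 4, and there was no overlap. Its log2 fold change was −0.72 (SE 0.35, limma adjusted p = 0.619), and −0.38 (SE 0.20) without water array 3. Pole, the catalytic subunit of polymerase epsilon, stood at 2.71, 1.77 and 3.13 on captopril arrays, against 3.03, 3.78 and 3.14 on water arrays. Captopril array 3 was the low one and captopril array 4 matched water array 4, and the log2 fold change was −0.78 (SE 0.40) over 6 arrays and −0.54 (SE 0.37) without water array 3. Without captopril array 3 it was −0.39. Its second probe was not well above background on any array.

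Pole2, a smaller subunit of polymerase epsilon, stood at −0.80, −1.34 and −1.22 on captopril arrays, against −1.14, 0.42 and −0.20 on water arrays. Water array 2 lay among the captopril arrays, and the log2 fold change was −0.82 (SE 0.41) over 6 arrays and −0.45 (SE 0.30) without water array 3. Prim1, the catalytic subunit of primase, described because of its values, stood at 2.85, 2.68 and 3.01 on captopril arrays, against 3.08, 3.99 and 3.20 on water arrays. The groups did not overlap, at −0.58 (SE 0.30) over 6 arrays and −0.29 (SE 0.16) without water array 3. Prim2, its partner, gave −0.37 and −0.14 with overlapping groups. Pola2, the second subunit of polymerase alpha, described for the same reason, stood at −0.10, −0.13 and −1.08 on captopril arrays, against 0.23, −5.10 and 0.09 on water arrays. It was too dim on water array 3 to be well above background, and gave 1.16 (SE 1.35) over 6 arrays and −0.60 (SE 0.31) without it.

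The sliding clamp gene Pcna and the clamp loader genes Rfc2 to Rfc5 lay near 0 by their group median, while Rfc3 lay further off. Their median was −0.12 over 6 arrays and 0.04 without water array 3, where it was −0.09 with quantile normalization or with scaling by the median. Pcna stood at 3.76, 3.79 and 4.12 on captopril arrays, against 4.03, 4.45 and 3.96 on water arrays. Captopril array 4 lay above water arrays 2 and 4, and the log2 fold change was −0.25 (SE 0.24) over 6 arrays and −0.10 (95% interval −0.50 to 0.30) without water array 3. Rfc3 stood at 2.62, 2.57 and 2.19 on captopril arrays, against 2.75, −1.05 and 2.70 on water arrays. It gave 0.99 (SE 0.97) over 6 arrays, and −0.27 (SE 0.18) without water array 3.

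Rfc4 has 2 probes above background that part ways on water array 3. The brighter one stood at 3.57, 3.59 and 4.16 on captopril arrays, against 3.77, 4.46 and 3.69 on water arrays, and the other at 3.78, 3.72 and 4.16 against 4.02, 1.65 and 3.73. Water array 3 was thus the highest array by the first probe and the lowest by the second. Over 6 arrays these probes gave −0.20 and 0.76, and without water array 3 they gave 0.04 and 0.02. Rfc2 and Rfc5 gave −0.03 and −0.12 over 6 arrays and 0.07 and 0.08 without that array, with SE of 0.19 to 0.29 in these values.

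**Figure D4:**
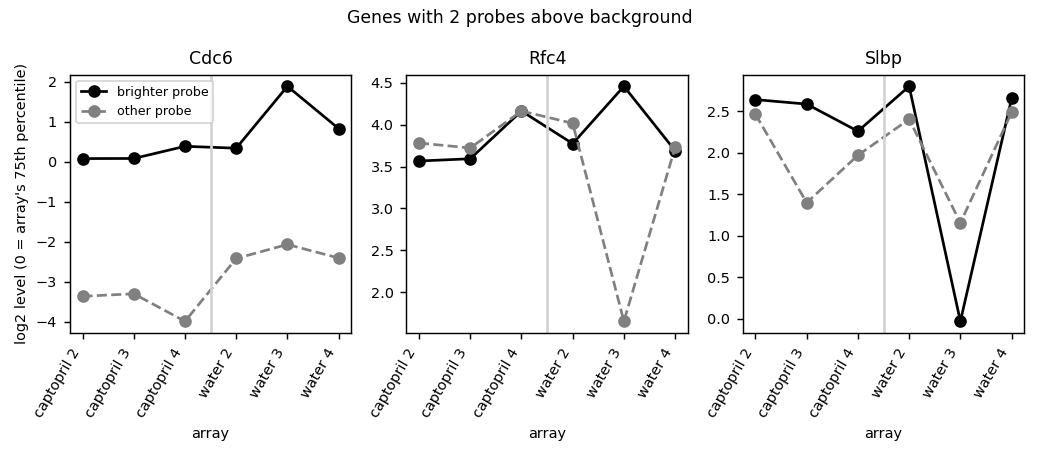
Log2 level (0 is the array's 75th percentile) on each array, captopril left of the grey line, for the 3 members with 2 probes above background, each panel with its own axis. The probes of Rfc4 lie close together on 5 arrays and move in opposite directions on water array 3, both probes of Slbp are lowest there, and both probes of Cdc6 are highest there.

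The genes of lagging-strand maturation and of the single-strand binding protein RPA had a median of −0.33 over 6 arrays, with 4 of 4 negative, and of −0.11 without water array 3, with 3 of 4 negative. Fen1, the nuclease that trims Okazaki fragments, stood at 2.36, 2.33 and 2.80 on captopril arrays, against 2.61, 3.49 and 2.67 on water arrays. Captopril array 4 lay above water arrays 2 and 4, and the values were −0.43 (SE 0.31) and, without water array 3, −0.14 (SE 0.19). Rpa2 stood at 2.59, 1.22 and 2.78 on captopril arrays, against 2.63, 3.06 and 3.04 on water arrays. Captopril array 3 was the lowest by more than 1 log2 unit, and the values were −0.71 (SE 0.43) and, without water array 3, −0.64 (SE 0.45). Without captopril array 3 the value was −0.23. Rpa1 stood at 2.22, 2.65 and 2.90 on captopril arrays, against 2.66, 3.13 and 2.66 on water arrays, and gave −0.23 (SE 0.27) and, without water array 3, −0.07 (SE 0.22). Lig1, the ligase that joins the fragments, gave −0.19 (SE 0.27) and, without that array, 0.02 (SE 0.18).

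Slbp, which binds the stem-loop of histone messenger RNA, stood at 2.64, 2.59 and 2.26 on captopril arrays, against 2.80, −0.03 and 2.65 on water arrays. The log2 fold change was 0.69 (SE 0.72) over 6 arrays and −0.23 (SE 0.17) without water array 3, the array that lay low. Its other probe gave −0.07 and −0.50 in these comparisons, with a level of 1.40 on captopril array 3 against 2.46 and 1.97 on captopril arrays 2 and 4.

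**Figure D5:**
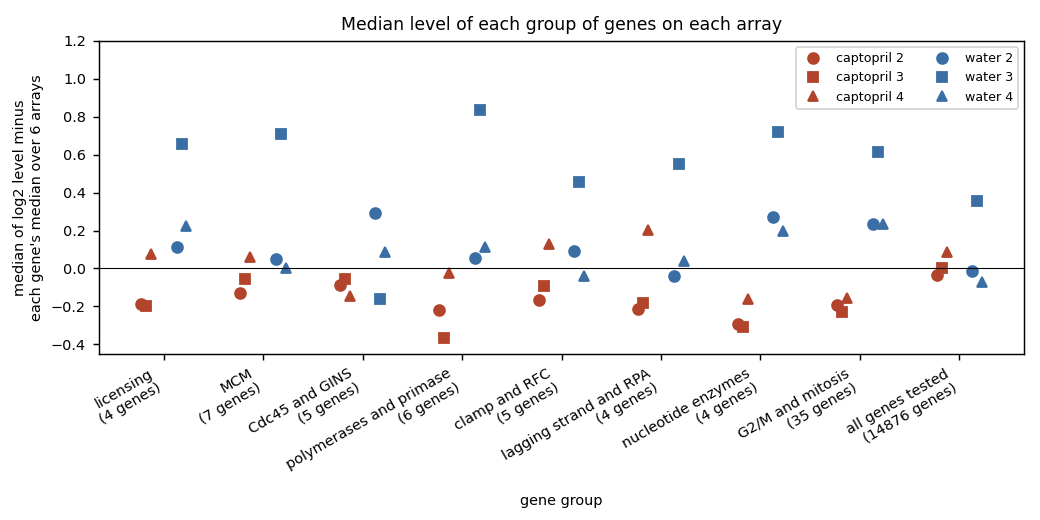
Median over each gene group (horizontal axis, with the number of genes) of the log2 level relative to each gene's own median, on the captopril (red) and water (blue) arrays; each symbol is 1 array. Captopril array 4 lies above captopril arrays 2 and 3 for every role group shown except Cdc45 and GINS, and the captopril arrays lie below all water arrays for the licensing, polymerase, nucleotide and mitosis groups, most widely for the nucleotide and mitosis genes.

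Captopril arrays differed among themselves too. Captopril array 4 was the highest of the 3 in 26 of the 36 members (72.2%), and in 56.6% of all genes. The median level of the 36 genes, relative to each gene's own median, was −0.16, −0.12 and 0.04 on captopril arrays 2, 3 and 4, against 0.10, 0.61 and 0.05 on water arrays 2, 3 and 4. Captopril array 4 thus stood next to water array 4 for the group as a whole. Over all genes the same arrays stood at −0.03, 0.003 and 0.09, against −0.01, 0.36 and −0.07.

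Feeder fibroblast markers were brightest on water array 3, and some had an unadjusted limma p under 0.05 without it too. Their summed signal, in units of each array's 75th percentile, was 174, 157 and 192 on captopril arrays 2, 3 and 4, against 186, 308 and 170 on water arrays 2, 3 and 4. That of the germ cell markers was 110, 112 and 138, against 108, 148 and 103. Over 6 arrays 11 of 15 fibroblast markers had negative log2 fold changes, and 8 of 15 without water array 3, with medians of −0.39 and −0.10. At an unadjusted p under 0.05 by limma, 5 of the 15 (33.3%) were lower and 1 was higher in each comparison. Of all genes 4.91% were lower over 6 arrays and 6.98% without water array 3. No fibroblast marker passed the adjusted threshold, with smallest limma adjusted p of 0.529 over 6 arrays and 0.0882 without water array 3. The germ cell markers had medians of 0.02 and 0.08. The part of either cell type in the values of the replication genes was not tested.

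Other genes of replication and nucleotide supply, a list of 48 that includes genes of origin recognition, DNA polymerase delta and purine synthesis, stood much as the 36 did. All 48 were measured. Over 6 arrays 36 were negative, with a median of −0.30, and without water array 3 38 were, with a median of −0.17. None passed the test by limma in either comparison, and at an unadjusted p under 0.05 4 were lower over 6 arrays (8.33%, against 4.91% of all genes), and 6 were lower (12.5%, against 6.98%) and 1 was higher without water array 3. The smallest p over 6 arrays were those of Topbp1, a scaffold of helicase activation and of the ATR checkpoint, Ticrr, which helps bring Cdc45 to the ring, and Pole3, a small subunit of polymerase epsilon. Topbp1 stood at 0.31, −0.07 and −0.31 on captopril arrays, against 0.86, 1.95 and 0.79 on water arrays, which gave −1.22 (SE 0.37, limma adjusted p = 0.532) over 6 arrays and −0.85 (SE 0.20, adjusted p = 0.103) without water array 3. Ticrr stood at −2.36, −2.30 and −2.38 on captopril arrays, against −1.67, −0.95 and −1.75 on water arrays. The separation in Ticrr was wide against the spread of the captopril arrays, at −0.89 (SE 0.27) over 6 arrays and −0.64 (SE 0.14, adjusted p = 0.0858) without water array 3. Pole3 gave −0.69 (SE 0.28) and −0.53 (SE 0.22).

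Genes of G2 and mitosis, the next most like list after the other replication genes, lay lower. The median of 35 was −0.61 over 6 arrays, with 30 negative, and −0.39 without water array 3, with 34 negative, of which 1 passed the test over all genes. Cenpf, Ccna2 and Nusap1 had the smallest p of that list over 6 arrays, at −1.06, −0.95 and −1.34 (SE 0.22, 0.22 and 0.34), and at −0.96, −1.03 and −1.02 without water array 3. In 16 of the 35 (45.7%) every captopril array lay below every water array, beside 22.2% of the replication genes and 11.4% of all genes. Without water array 3 it was 65.7%, beside 41.7% and 15.7%. Of all genes 53.2% were negative over 6 arrays and 41.5% without water array 3. Whether these lists differ was not tested.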

How the data were processed

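The members, gene lists and tests were chosen with earlier results of these data known. Spot intensity values are those the authors deposited, written by the scanner software Feature Extraction of Agilent, whose version is 11.5.1.1 per the file headers and 10.7 per the submitters' processing notes. It subtracted background within each array and set a flag for signal well above background. The authors' deposited log2 values (the series table) differed from log2 of these intensities by a constant per array, to within 0.01 for 100% of probes, with column medians from −4.24 to −3.62 and the 75th percentile close to 0. The steps that made them are not given in the sources used here, and they were used as an alternative.

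Log2 intensity minus each array's 75th percentile (1875.1 to 3424.1) was used, without control and outlier spots. Spots of a probe were averaged. Accessions were named through RefSeq (GRCm38.p6), which gave 26762 of 55681 probes 1 symbol. The 36 members had 40 probes, 39 of which passed. Probes had to be well above background on 3 or more arrays, and the brightest such probe stood for its gene. Between 52.2% and 60.5% of spots per array were so; the number of arrays limits the precision. All arrays are on 1 slide with 1 scan date. The captopril arrays and water array 4 lie in slide row 2, and water arrays 2 and 3 in row 1. Treatment and slide row are therefore largely confounded. Captopril was compared with water by limma 3.58.1 in R 4.3.3 (Benjamini-Hochberg, threshold 0.05, two-sided), checked on simulated data. The simulated data held no array that stood apart and no effect of slide row, so the check does not cover these. Members with values on every array are the 3 with the smallest p in each role group over 6 arrays, plus those said to be described for their values; genes of the other lists are the 3 with the smallest p. The alternatives were normexp (offset 50, on median spot and background signals), quantile and median scaling, other filters and thresholds, averaging over probes, the values of the authors' table, eBayes with a trend and robust variances, a block for replicate number or slide row, the arrays of slide row 2 by themselves, and leaving out each array.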

Additional observations from a re-analysis of the deposited data

How the results depend on the processing

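The count of members past an adjusted p of 0.05 was 0 in every fit run. Over 6 arrays it was also 0 at an adjusted p under 0.1, and 2 at an unadjusted p under 0.05. The 0.1 threshold was not counted in the other fits, where Rrm2 lay under it without water replicate 3 (limma adjusted p = 0.0789, 0.0778 with quantile normalization and 0.0681 with median scaling). Of all genes limma called 0, except 91 without water replicate 3, 39 when scaling by the median was added to that, and 1222 at an unadjusted p under 0.05. The count was 0 again with quantile normalization or no filter on dim probes of those 5 arrays, both chosen after seeing the data, and the cause was not tested. The median of the members ranged from −0.41 to −0.20 when each array was left out in turn, and from −0.57 to −0.19 elsewhere. Scaling by each array's median moved the median of all genes to −0.33, and relative to that the members stood at −0.24. Without water replicate 3, 35 of 36 members were negative with quantile or median scaling, Gins3 being the exception. The replicate numbers are not said to pair the samples. Correlations of deviations from the group mean were −0.015, 0.022 and −0.192 for numbers 2, 3 and 4. With water replicate 3 standing apart, these values cannot settle whether the samples are paired. With the replicate block limma called 0 genes and 0 members, and the members' median was −0.27.

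Some group medians moved by more than the replicate spread with median scaling, which moved the median of all genes to −0.33. They went to −0.64 (licensing), −0.15 (Cdc45 and GINS), −0.42 (clamp and RFC), −0.91 (nucleotide enzymes) and −0.91 (mitosis). Relative to all genes these groups stood at −0.31, 0.18, −0.09, −0.57 and −0.58, as they did with scaling by the 75th percentile. The median of Cdc45 and GINS also moved to −0.18 with the filter on all 6 arrays. It moved to −0.42 with the slide row as a block or in row 2 alone. Without water replicate 3 it was −0.48, or −0.52 with quantile normalization added, −0.61 with median scaling added and −0.48 with no filter. For Cdc45 and GINS leaving out each array in turn gave −0.48 to 0.24, and for the mitosis genes −0.67 to −0.39, the second without water replicate 3, with or without the filter. The slide row as a block, which gave the values of row 2 alone, turned the sign of Orc6 (0.11), Mcm3 (0.0891), Mcm6 (0.11), Mcm7 (0.0009), Cdc45 (−0.59), Gins2 (−0.0246), Pola2 (−0.53), Rfc2 (0.48), Rfc3 (−0.24), Rfc4 (0.0846), Rfc5 (0.24) and Slbp (−0.16). Leaving out each array in turn gave ranges that cross 0 for Cdc45 (−0.53 to 2.48), Gins2 (−0.14 to 2.22), Pola2 (−0.60 to 2.07), Rfc2 (−0.28 to 0.12), Rfc3 (−0.27 to 1.64), Rfc4 (−0.39 to 0.0425), Rfc5 (−0.30 to 0.0807), Lig1 (−0.32 to 0.0233) and Slbp (−0.23 to 1.18), each turned by leaving out water replicate 3, and for Mcm5 (−0.27 to 0.0261), turned without water replicate 4. Rfc2 turned too without captopril replicate 2 (0.09) or water replicate 2 (0.12) and with quantile normalization (0.0379), Gins3 with median scaling (−0.15) and Rfc4 with the mean of its probes (0.28). No member passed the test in any of these fits.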
